A study of Rattus norvegicus with 12 samples.

Results

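The 49 genes described here encode proteins of mitosis, from the cyclins that start it to the ring that divides the cell. They were taken by symbol from a list that uses no measured value in its rule, but the list was drawn up with earlier results of these data known. All 49 were present among the 33294 gene symbols of the deposited count table, and all 49 were among the 18438 genes that passed the filter on low counts. The lowest count of a member in any library was 1121, so none of them entered the test through 1 group alone.

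Rat PAC1 cells, an established line derived from pulmonary artery smooth muscle, were kept in the culture conditions that favour the differentiated state. They received 90 pmol of siRNA by reverse transfection and the same amount again 24 h later, and RNA was taken 48 h after that, according to the labels. The groups were the negative control siRNA C2, and siRNA against RBPMS, RBFOX2 or QKI, with 3 libraries each. The model is 1 cell line on plates, and knockdown leaves part of each target in place. The study's methods describe the libraries of a group as independent biological replicates. The study reports that the control cells used here were less differentiated than those of its other sequencing experiment, by splicing and RNA levels. RBPMS, RBFOX2 and QKI are RNA-binding proteins that regulate splicing in smooth muscle, and the comparison of each knockdown with control asks what the loss of that protein does to the transcriptome.

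Mitosis is driven by cyclin B bound to the kinase CDK1. Phosphatases of the CDC25 family switch this complex on, the Aurora and Polo-like kinases build the spindle, and the spindle assembly checkpoint holds the cell until every chromosome is attached. The ubiquitin ligase APC/C, activated by CDC20, then destroys cyclin B and securin, so that the chromosomes separate and the cell divides. Many of these genes are transcribed together late in the cell cycle, through promoters that carry a CHR element (cell cycle genes homology region) and CCAAT boxes, which are bound by the MuvB complexes and by NF-Y. Their summed RNA level is therefore widely read as a sign of dividing cells. In smooth muscle, division and the contractile state tend to go in opposite directions.

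The libraries held 111 to 152 M counts. Levels are given below as CPM, counts scaled to a fixed library total, after TMM scaling, which evens out differences in library composition. Fold changes are log2 values from edgeR's quasi-likelihood fit. Their standard error (SE) was derived as the absolute log2 change divided by the square root of the test's F statistic. A gene is said to rise or fall where the Benjamini-Hochberg adjusted p over all genes tested was below 0.05. The targeted genes followed the labels. Rbpms lay at 38.9 to 43.7 CPM in control and at 6.96 to 7.54 CPM in its knockdown, Rbfox2 at 152 to 159 against 36.2 to 37.9 CPM, and Qk, which encodes QKI, at 229 to 242 against 26.0 to 27.3 CPM. The other 2 targets moved less in each knockdown, with log2 changes of -0.12 for Rbfox2 and 0.18 for Qk in RBPMS-KD, -0.81 for Rbpms and -0.42 for Qk in RBFOX2-KD, and -0.49 for Rbpms and -0.15 for Rbfox2 in QKI-KD.

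After RBPMS knockdown the mitosis genes rose almost as a block. Of the 49 members, 46 were higher than in control and 3 did not pass the test, while 30.4% of all genes tested were higher and 29% lower. The median log2 change of the members was 0.33, against 0.0085 over all genes tested. The changes were small: they ranged from -0.080 to 0.87 with SEs of 0.029 to 0.064, and no member reached an absolute log2 change of 1, a size that 5.16% of all genes passed upwards and 4.5% downwards. The 3 comparisons with control share the same control libraries. Among the 10025 genes with a mean of at least 1000 counts, 40.6% were higher and 35.5% lower, with SEs of 0.028 to 0.27.

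No member was lower after RBPMS knockdown with edgeR and TMM scaling. At an unadjusted p below 0.05 there was 1, Nusap1, which was called lower by edgeR with library totals or with a filter at a mean of 200 counts, by DESeq2 and by limma. The 3 members that did not pass were Nusap1, Incenp and Espl1. With library totals alone 41 members rose, the calls for Cdc25b, Bub3, Cenpa, Ect2 and Ncaph being lost.

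**Figure D1:**
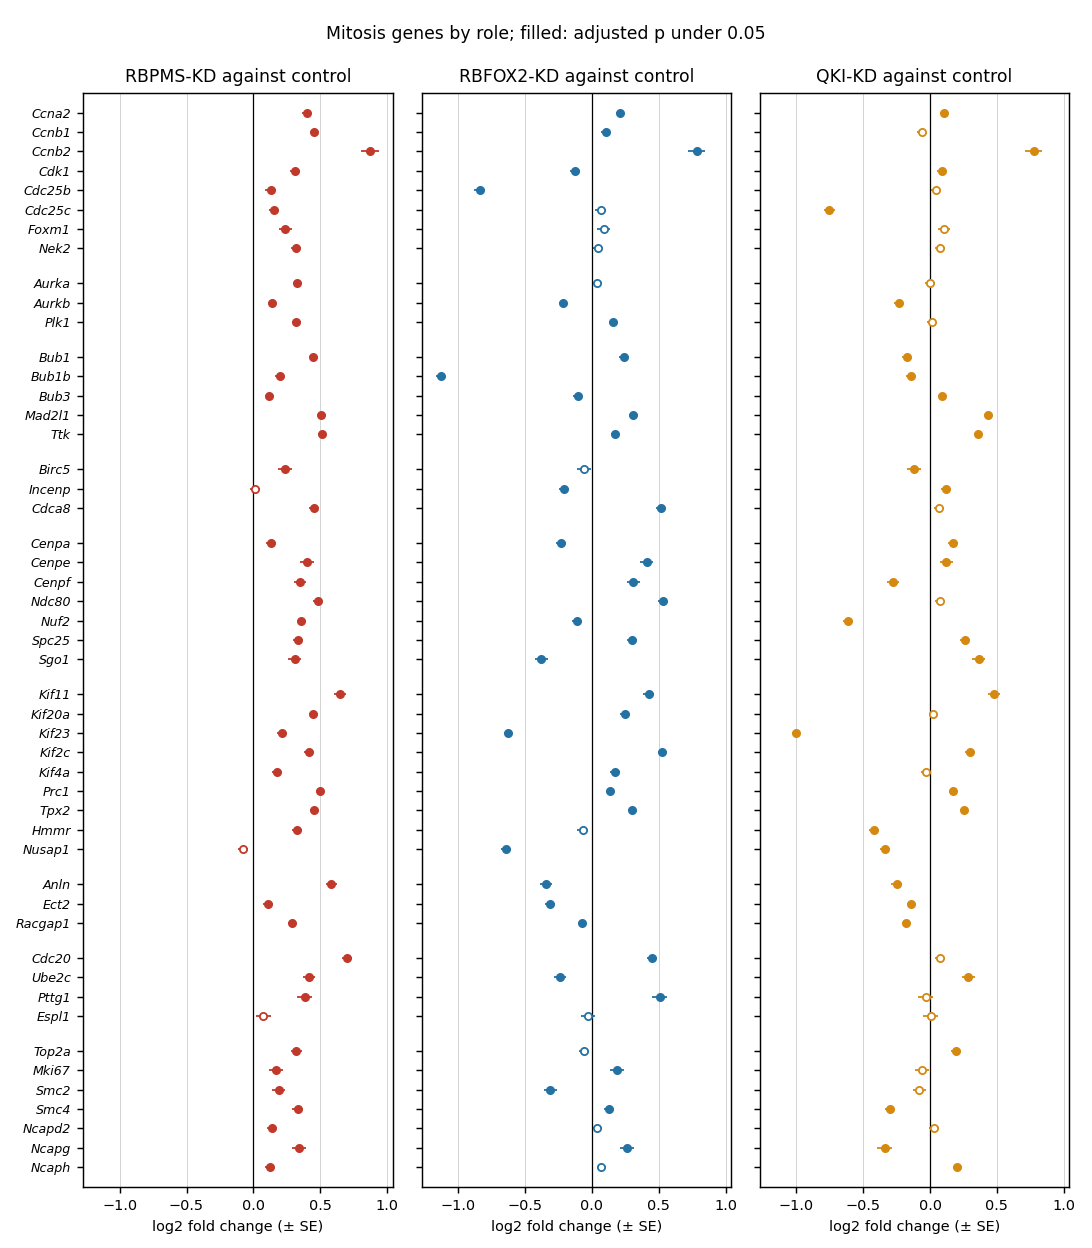
Log2 fold change of each of the 49 mitosis genes in the 3 knockdowns against control, with points for the edgeR estimate, bars for the SE and filled points for adjusted p below 0.05. Genes are ordered by role from top to bottom, with gaps between roles. The RBPMS-KD points lie to the right of 0 for 48 of 49 genes, while those of RBFOX2-KD and QKI-KD lie on both sides.

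Summed over the members, the level was 5379, 5441 and 5452 CPM in the control libraries and 6943, 6600 and 6727 CPM in the RBPMS-KD libraries. Every RBPMS-KD library lay above every control library. In RBFOX2-KD the sums were 5585, 5527 and 5716 CPM, just above the control range, and in QKI-KD they were 5355, 5384 and 5380 CPM, overlapping it. The picture for QKI-KD depended on the scaling: as an unscaled share of all counts, the members took 0.533% to 0.534% in control, 0.626% to 0.665% in RBPMS-KD, 0.563% to 0.584% in RBFOX2-KD and 0.560% to 0.562% in QKI-KD, which put the QKI-KD libraries above control. Without TMM scaling, the median log2 change of all genes tested in QKI-KD also went up, from 0.0070 to 0.093. In bulk RNA, a larger share of cells in mitosis and more of these RNAs per dividing cell cannot be told apart.

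**Figure D2:**
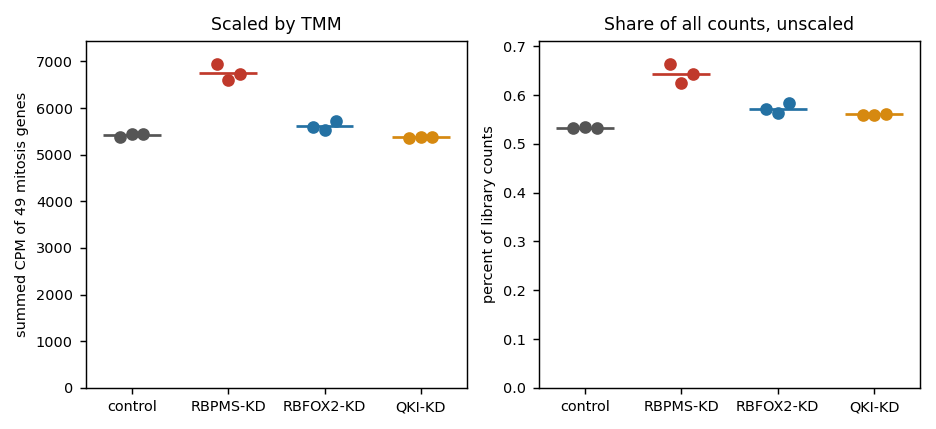
Summed level of the 49 mitosis genes in each library, as TMM-scaled CPM on the left and as a percent of all counts, with no scaling, on the right. Points are libraries and lines are group means over 3 libraries. RBPMS-KD stands highest in both panels, and QKI-KD is level with control on the left and above it on the right.

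Smooth muscle markers moved in the same libraries. The summed level of 8 contractile genes (Acta2, Tagln, Cnn1, Myh11, Myl9, Mylk, Smtn and Myocd) was 2110 to 2175 CPM in control, 1069 to 1176 CPM in RBPMS-KD, 827 to 925 CPM in RBFOX2-KD and 1441 to 1526 CPM in QKI-KD. The sum was therefore lowest in RBFOX2-KD, and not in RBPMS-KD, where the mitosis genes were highest. The 8 genes went both ways, with 2 higher and 6 lower in RBPMS-KD, 2 higher and 5 lower in RBFOX2-KD, and 2 higher and 5 lower in QKI-KD. Acta2, the smooth muscle actin that makes up much of the sum, changed by -1.65, -2.11 and -1.16 on the log2 scale in that order. Myh11, the smooth muscle myosin heavy chain, rose by 0.34, 1.05 and 0.19. Myocd, the coactivator of contractile genes, rose by 0.16 in RBPMS-KD and 0.78 in QKI-KD, and Smtn by 0.18 in RBFOX2-KD. Of 12 markers of endothelial, immune and epithelial cells, 8 were measurable, while Kdr, Ptprc, Adgre1 and Krt18 were too low to be tested. Summed over all markers present in the counts, untested ones included, the level was 39.6 to 40.7 CPM in control. It was 45.5 to 53.6 CPM in RBPMS-KD, 77.5 to 79.8 CPM in RBFOX2-KD and 39.7 to 41.6 CPM in QKI-KD. Most of that sum was the keratin Krt8, which rose by 0.38 in RBPMS-KD and 1.25 in RBFOX2-KD and gave 0.078 in QKI-KD (adjusted p = 0.234). Besides Krt8, Pecam1 and Tek rose and Cdh5 fell in RBPMS-KD, and in RBFOX2-KD Cdh5 fell, by 1.10. In QKI-KD 5 of the 8 rose, Epcam by 2.62, Cdh1 by 2.23, Pecam1 by 1.27, Cd68 by 0.93 and Tek by 0.66, and Cdh5 fell by 1.18. Epcam, Cdh1 and Pecam1 stayed below 1 CPM in every library. The part of these markers in the changes of the mitosis genes was not tested.

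The promoters of the members were searched for the letters of the CHR element and the CCAAT box, for which genes of this kind are known. Their frequency describes the members and is no independent test of the list. A RefSeq promoter table of the rat assembly GRCr8, spanning 250 bases before to 50 bases after each annotated start, held 43 promoters of 42 members, Kif2c having 2. Ccna2, Foxm1, Aurkb, Incenp, Tpx2, Racgap1 and Ube2c were not in it. The counts themselves were made on another assembly, mRatBN7.2, so these coordinates are not those of the count table. CHR letters, TTTGAA or TTCGAA on either strand, occurred in 33 of the 43 promoters (76.7%), against 15.2% of the 15392 promoters of genes tested and 19.7% of all 33469 promoters in the table. The letters CCAAT on either strand were in 76.7% of members' promoters, 36.8% of promoters of genes tested and 37.5% of all promoters. At least 2 CCAAT matches were found in 55.8%, 12.4% and 11.2%, and a CHR match together with CCAAT in 65.1%, 6.27% and 7.95%.

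The stretches below show how the letters are arranged upstream of genes that rose in RBPMS-KD: cyclin B2, its kinase CDK1, the APC/C activator CDC20, and the kinesin KIF23, which rose there and fell in the other knockdowns. Ccnb2, Cdk1 and Cdc20 were picked for their roles, and Kif23 after its values were seen. Each is read 5′ to 3′ on the gene's strand and ends at the base before the annotated start. Capitals mark the CHR letters (TTTGAA here) and CCAAT or its reverse complement ATTGG. On GRCr8 the stretches lie at chr8:79981659-79981884 for Ccnb2 (minus strand), chr20:19265071-19265292 for Cdk1 (plus strand), chr5:137255800-137255897 for Cdc20 (minus strand) and chr8:71320585-71320684 for Kif23 (minus strand). Ccnb1 and Plk1 were picked as well, but held no CHR letters before the start.
Ccnb2: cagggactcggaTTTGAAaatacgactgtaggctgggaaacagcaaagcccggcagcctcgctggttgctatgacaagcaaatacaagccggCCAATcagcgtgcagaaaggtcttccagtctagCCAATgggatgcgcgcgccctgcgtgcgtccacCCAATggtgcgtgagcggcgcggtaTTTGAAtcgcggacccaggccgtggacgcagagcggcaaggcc
Cdk1: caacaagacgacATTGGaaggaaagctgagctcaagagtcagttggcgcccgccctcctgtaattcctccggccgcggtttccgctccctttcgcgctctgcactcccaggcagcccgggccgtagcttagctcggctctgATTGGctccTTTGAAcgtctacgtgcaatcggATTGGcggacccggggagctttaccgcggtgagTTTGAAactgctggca
Cdc20: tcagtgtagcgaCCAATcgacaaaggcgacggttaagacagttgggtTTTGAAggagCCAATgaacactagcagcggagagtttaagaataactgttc
Kif23: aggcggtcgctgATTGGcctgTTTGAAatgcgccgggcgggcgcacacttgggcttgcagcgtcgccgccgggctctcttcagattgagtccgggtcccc

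Ccnb2 and Cdk1 each carried 3 CCAAT matches and 2 CHR matches in the stretches printed above, with the CHR match nearest to the start beginning 43 bases before it in Ccnb2 and 16 bases before it in Cdk1. In Cdc20 the CHR letters stood 51 bases before the start, between 2 CCAAT matches, and in Kif23 they stood 79 bases before it, next to 1 CCAAT match. Over the members, 34 of the 41 CHR matches (82.9%) began within 100 bases before the start or after it, against 40.7% of the matches in promoters of genes tested. CCAAT matches showed no such difference, with 50% and 49.4% in that window.

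**Figure D3:**
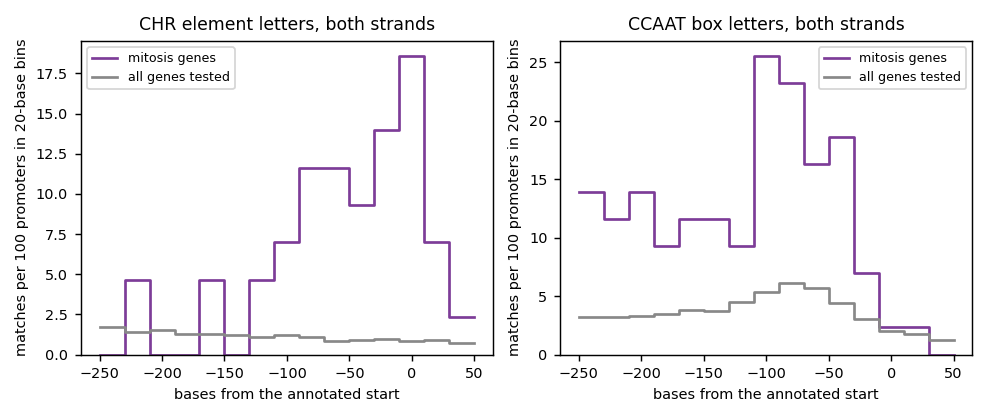
Positions of CHR letters (left) and CCAAT letters (right) around the annotated start, counted on both strands as matches per 100 promoters in bins of 20 bases. Purple lines are the 43 promoters of mitosis genes and grey lines the 15392 promoters of genes tested. CHR matches of the mitosis genes gather near the start, and CCAAT matches are highest about 100 bases before it.

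Members rose in RBPMS-KD with and without the CHR letters. There, 31 of the 33 members with a CHR match rose, with a median log2 change of 0.32, and all 9 members in the table without one rose, with a median of 0.41. In RBFOX2-KD the members with a match split into 15 higher and 12 lower, while those without gave 6 higher and none lower. In QKI-KD the splits were 10 and 12 against 4 and 1. The 7 members not in the promoter table gave 6 higher and none lower in RBPMS-KD. They gave 2 higher and 4 lower in RBFOX2-KD, and 4 higher and 2 lower in QKI-KD. Of all genes tested, 30.4% were higher and 29% lower in RBPMS-KD, 30.1% and 30.1% in RBFOX2-KD, and 32.9% and 34% in QKI-KD. These are descriptions of small sets, with no test.

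The counts by role that follow divide the 46 rises in RBPMS-KD given above, where 30.4% of all genes tested were higher. In RBPMS-KD the cyclins, CDK1 and its activators rose in 8 of 8 cases. Ccnb2, one of the B-type cyclins, stood at 9.15, 9.27 and 8.78 CPM in control and at 15.7, 17.6 and 16.3 CPM in RBPMS-KD. All knockdown libraries lay above all control libraries, and the log2 change of 0.87 ± 0.064 (adjusted p = 3.61e-09, edgeR) was the largest among the members. Ccnb1, the main mitotic cyclin, went from 141, 139.8 and 137 CPM to 189, 198 and 185 CPM, and Cdk1 from 138, 133 and 132 CPM to 161, 177 and 159.7 CPM. Neither gene's groups overlapped, with log2 changes of 0.45 ± 0.033 and 0.31 ± 0.038. Foxm1, a transcription factor of late cell cycle genes, was at 73.4, 79.2 and 80.3 CPM and 96.5, 84.5 and 93.9 CPM, a change of 0.24 ± 0.047 (edgeR adjusted p = 0.000288). Ccna2, which encodes cyclin A2, changed by 0.40 and Nek2, a centrosome kinase, by 0.32. The smallest rises in this role were those of the phosphatases Cdc25b (0.13) and Cdc25c (0.15), and the call for Cdc25b was lost without control replicate 3.

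The kinases rose in 3 of 3 cases. Plk1, the Polo-like kinase that acts throughout mitosis, was at 149.8, 147 and 149.9 CPM in control and 190.2, 184 and 184 CPM in RBPMS-KD, a log2 change of 0.32 ± 0.030. Aurkb, the kinase that corrects faulty attachments at the centromere, was at 67.7, 67.1 and 68.2 CPM and 73.9, 75.5 and 74.3 CPM, a change of 0.14 ± 0.031. In both genes the groups did not overlap, and the rise of Plk1 was the larger. Aurka, which acts at the spindle poles, changed by 0.33.

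Checkpoint genes rose in 5 of 5 cases. Mad2l1 and Ttk, which encode the checkpoint protein MAD2 and the kinase MPS1, both changed by 0.51, with Mad2l1 at 104, 104 and 101 CPM in RBPMS-KD, and the checkpoint kinase gene Bub1 changed by 0.45. Bub1b, which encodes the checkpoint protein BUBR1, was at 101, 104 and 103 CPM in control and 120.03, 113 and 119 CPM after knockdown. These groups lay apart but close together, with a log2 change of 0.19 ± 0.035, and Bub3, the partner of BUB1 and BUBR1, changed by 0.12. Of the partners of Aurora B in the chromosomal passenger complex, Cdca8 (borealin) and Birc5 (survivin) rose, by 0.46 and 0.24. Incenp, the scaffold of that complex, gave 0.014 (adjusted p = 0.768), and the sign of its change turned under other scalings.

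All 7 centromere and kinetochore genes rose, by 0.13 for Cenpa, the centromeric histone, to 0.48 for Ndc80, which binds microtubules. Cenpe, the kinesin that brings chromosomes to the spindle equator, was at 139, 145 and 149 CPM in control and 207, 174 and 192 CPM in RBPMS-KD. Its groups did not overlap, but the knockdown libraries were spread widely, and the log2 change was 0.40 ± 0.050. Nuf2, the partner of NDC80, changed by 0.36, and Sgo1, the protector of centromeric cohesin, by 0.31.

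Spindle motors and microtubule proteins rose in 8 of 9 cases. Kif11, the motor that pushes the spindle poles apart, stood at 75.1, 74.2 and 80.6 CPM in control and at 128, 113 and 119.97 CPM in RBPMS-KD. The groups were far apart and the log2 change was 0.65 ± 0.044 (adjusted p = 1.1e-09). The central spindle bundler Prc1 changed by 0.50, the spindle assembly factor Tpx2 by 0.46, and the kinesins Kif20a, Kif2c, Kif23 and Kif4a by 0.45, 0.41, 0.21 and 0.18. Hmmr gave 0.33. Nusap1, which binds spindle microtubules near chromosomes, was the 1 member with a negative change, at 63.5, 60.6 and 61.8 CPM in control and 59.1, 57.5 and 59.3 CPM after knockdown. The knockdown libraries all lay below control, but by little, and the change of -0.080 ± 0.037 did not pass the test (adjusted p = 0.079).

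The 3 cytokinesis genes rose. Anln, which encodes the ring scaffold anillin, stood at 131, 135 and 136 CPM in control and at 213, 183 and 206 CPM in RBPMS-KD. That was the fourth largest change among the members, 0.58 ± 0.043, with the groups well apart. Racgap1, a subunit of centralspindlin, changed by 0.29. Ect2, which activates RhoA at the cleavage plane, changed by 0.11, a call that was lost in 8 of the alternatives tried, library totals among them.

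Genes of anaphase and mitotic exit rose in 3 of 4 cases. Cdc20 stood at 110.2, 112 and 113 CPM in control and at 176, 191 and 177 CPM in RBPMS-KD, a log2 change of 0.70 ± 0.037 (adjusted p = 5.98e-11). No pair of libraries overlapped between the groups, and this was the second largest change of the 49. Ube2c, the E2 enzyme of the APC/C, changed by 0.42 and Pttg1, which encodes securin, by 0.38. Espl1, which encodes separase, gave 0.073 (adjusted p = 0.274), but passed when RBPMS-KD replicate 2 was left out.

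Chromosome genes rose in 7 of 7 cases, with a median log2 change of 0.19. Top2a, the topoisomerase that untangles sister chromatids, was at 279, 278 and 283 CPM in control and 373, 325 and 350.1 CPM in RBPMS-KD. These groups did not overlap, with a change of 0.32 ± 0.040. Mki67, which encodes the proliferation marker Ki-67, was at 412, 428 and 434 CPM and 517, 426 and 492 CPM. Here the groups overlapped, since RBPMS-KD replicate 2 lay within the control range, and the change of 0.17 ± 0.052 (edgeR adjusted p = 0.00936) was lost without RBPMS-KD replicate 1 and on the normalised table. The condensin genes Smc2, Smc4, Ncapd2, Ncapg and Ncaph changed by 0.19, 0.33, 0.14, 0.34 and 0.12.

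Libraries of a group differed in many members. RBPMS-KD replicate 2 was the lowest of the 3 for 23 members, among them Mki67, Cenpe, Cenpf, Anln and Smc2, and the highest for 19, among them Ccnb2, Cdc20, Pttg1, Birc5 and Ube2c. Without it, 47 members were higher and none lower, and the median log2 change was 0.32. Control replicate 1 was also lowest for 23 members. In RBFOX2-KD the libraries were more one-sided, with replicate 2 lowest for 32 members and replicate 3 highest for 34, and without these in turn 23 and 21 members were higher than in control and 15 and 17 lower.

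**Figure D4:**
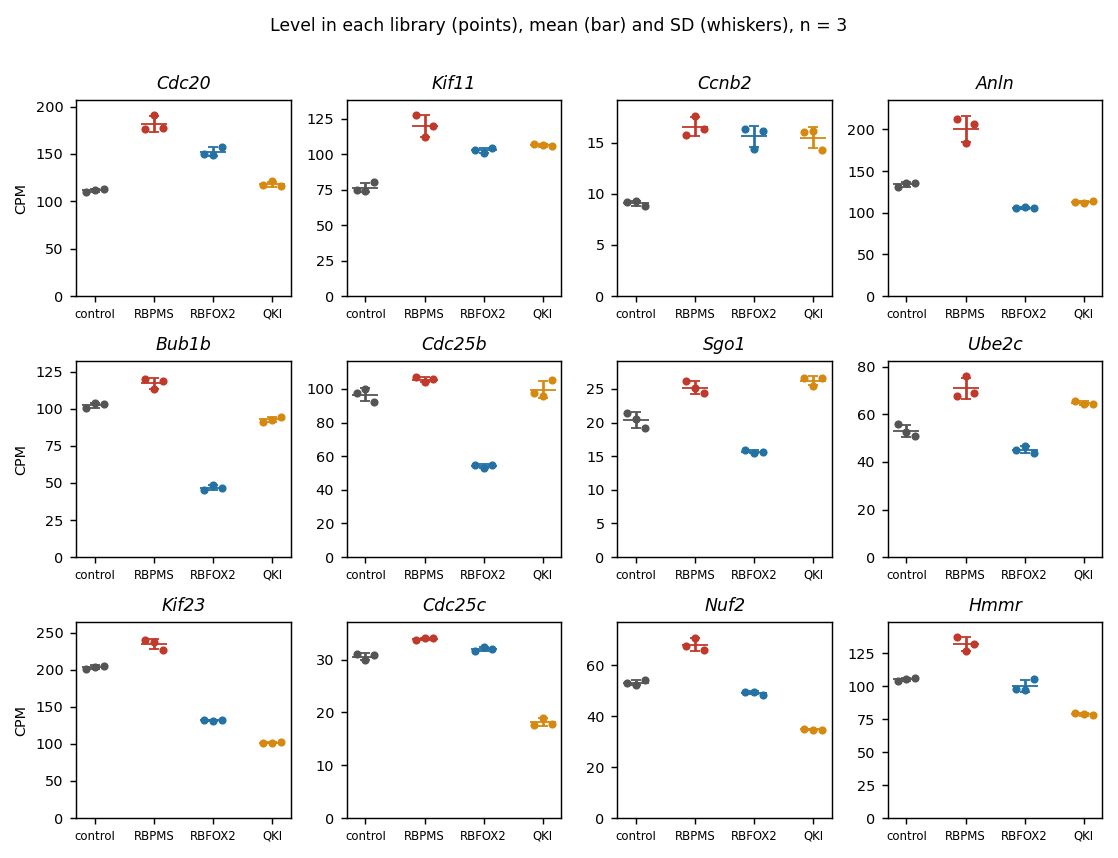
Levels of 12 mitosis genes in every library, in CPM from 0, with points for libraries, bars for the mean and whiskers for the SD over 3 libraries of each group. The top row holds the largest rises of RBPMS-KD, the middle row genes lowest in RBFOX2-KD, and the bottom row genes lowest in QKI-KD.

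After RBFOX2 knockdown the mitosis genes went both ways. Of the 49 members 23 rose (46.9%), 16 fell (32.7%) and 10 did not pass, while 30.1% of all genes tested were higher and 30.1% lower, and 34.9% and 40.1% of the genes averaging 1000 counts or more. The share that rose was above both backgrounds, and the share that fell was close to or below them. The median log2 change was 0.072 against 0.015 over all genes tested, and the range was -1.13 to 0.78. Scaling by library totals alone gave 29 higher and 12 lower. It also moved the median of all genes tested to 0.069, and the shares of all genes called under it were not counted. Past an absolute log2 change of 1, only Bub1b was called, downwards, where 4.73% of all genes were lower and 6.96% higher by that rule.

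Bub1b was the member that changed most. It was at 101, 104 and 103 CPM in control and at 45.4, 48.4 and 46.7 CPM in RBFOX2-KD, a log2 change of -1.13 ± 0.036 (adjusted p = 5.3e-14, edgeR). All RBFOX2-KD libraries lay far below all control libraries. Cdc25b, a phosphatase that activates CDK1 at the centrosome, fell from 97.5, 99.8 and 92.3 CPM to 54.6, 52.8 and 54.9 CPM, a change of -0.84 ± 0.041 (adjusted p = 1.31e-11). Nusap1 fell from its control level of 63.5, 60.6 and 61.8 CPM to 41.8, 38.6 and 38.7 CPM, a change of -0.64 ± 0.038, and Kif23, the kinesin of the centralspindlin complex, from 200.4, 204 and 205 CPM to 132, 131 and 132 CPM, a change of -0.63 ± 0.031. None of these 4 genes had overlapping groups.

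The falls gathered in no single role, although all 3 cytokinesis genes were among them. Of 10 further cytokinesis genes outside the 49, 6 were higher and 3 lower in RBFOX2-KD, beside 30.1% and 30.1% of all genes tested. Anln was at 105, 107 and 105 CPM in RBFOX2-KD, below every control library, with a log2 change of -0.34 ± 0.044, and Ect2 and Racgap1 changed by -0.31 and -0.071. The call for Racgap1 was near the threshold (adjusted p = 0.0472) and was lost in 11 of the alternatives. The condensin Smc2 changed by -0.31, Sgo1 by -0.38, Ube2c by -0.24, Cenpa by -0.23, Aurkb by -0.21 and Incenp by -0.21. Aurkb was at 57.7, 58.6 and 58.8 CPM, below all control libraries. Cdk1, at 124, 122 and 122 CPM, changed by -0.13 ± 0.038, Bub3 by -0.10 and Nuf2, at 49.5, 49.7 and 48.5 CPM, by -0.11 ± 0.035, and these 3 calls were lost with library totals alone and on the normalised table.

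The rises in RBFOX2-KD were led by Ccnb2, Ndc80 and Kif2c. Ccnb2 stood at 16.3, 14.4 and 16.1 CPM, well above control, with a log2 change of 0.78 ± 0.064 (adjusted p = 1.14e-08). Ndc80 was at 67.9, 68.6 and 70.7 CPM in control and 97.4, 97.6 and 104 CPM in RBFOX2-KD, and Kif2c, a kinesin that takes microtubules apart, at 50.8, 49.5 and 50.8 CPM and 73.4, 70.9 and 73.8 CPM. Their groups did not overlap, with changes of 0.53 ± 0.035 and 0.53 ± 0.037. Cdca8 and Pttg1 followed, with changes of 0.52 and 0.51. Cdc20 was at 150.3, 149 and 158 CPM in RBFOX2-KD, a change of 0.45 ± 0.037, Kif11 at 103, 101 and 105 CPM, a change of 0.42 ± 0.044, and Cenpe at 188, 188 and 200.005 CPM, a change of 0.41 ± 0.050. Mad2l1, at 71.6, 71.9 and 73.1 CPM in control, reached 89.03, 88.2 and 91.6 CPM here, a change of 0.31 ± 0.031. All 4 genes stood above every control library.

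The remaining rises were smaller. Cenpf, a kinetochore protein, changed by 0.31, Spc25, a subunit of the NDC80 complex, by 0.30, Tpx2 by 0.30, Ncapg by 0.26, Kif20a by 0.25, Bub1 by 0.24, Ccna2 by 0.21 and Mki67 by 0.19. Mki67 was at 475, 472 and 503 CPM, above all control libraries. Kif4a, Ttk, Plk1, Prc1, Smc4 and Ccnb1 rose by 0.10 to 0.18, Plk1 reaching 167, 162 and 168 CPM and Ccnb1 149.8, 148 and 151 CPM. Those that did not pass were Cdc25c, Foxm1, Nek2, Aurka, Birc5, Hmmr, Espl1, Top2a, Ncapd2 and Ncaph, with Foxm1 at 83.95, 80.8 and 82.9 CPM and Top2a at 268, 266 and 273 CPM.

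After QKI knockdown the counts were close to even. Of the 49 members 18 rose (36.7%), 15 fell (30.6%) and 16 did not pass, while 32.9% of all genes tested were higher and 34% lower, and 37.9% and 42.7% of the genes averaging 1000 counts or more. The shares of members were thus near or below the background, and what follows describes single genes. The median log2 change was 0.033, against 0.0070 over all genes tested. With library totals alone, these medians were 0.12 and 0.093, and 27 rose and 12 fell, and 24 rose and 13 fell on the authors' normalised table. The range was -0.9999 to 0.77, and no member passed the absolute log2 change of 1, which 8.28% of all genes passed upwards and 9.24% downwards.

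Kif23 was the member that fell most and stopped just short of that size. It was at 200.4, 204 and 205 CPM in control and at 102, 101 and 102 CPM in QKI-KD, a log2 change of -0.9999 ± 0.031 (adjusted p = 1.78e-14, edgeR). The libraries within each group were close together and the groups far apart. Cdc25c, another CDK1-activating phosphatase, fell from 31.02, 29.9 and 30.8 CPM to 17.7, 18.97 and 17.8 CPM, a change of -0.75 ± 0.039, and Nuf2 from 53.2, 52.2 and 54.2 CPM to 35.1, 34.7 and 34.6 CPM, a change of -0.61 ± 0.036. No library of QKI-KD reached the control range in these genes.

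Further falls were those of Hmmr (-0.42), Nusap1 (-0.34), Ncapg (-0.34), Smc4 (-0.30), Cenpf (-0.28), Anln (-0.25), Aurkb (-0.24), Racgap1 (-0.18), Bub1 (-0.17), Ect2 (-0.14), Bub1b (-0.14) and Birc5 (-0.12). As in RBFOX2-KD, the 3 cytokinesis genes among the members all fell. Of 10 further cytokinesis genes, 3 were higher and 5 lower in QKI-KD, beside 32.9% and 34% of all genes tested. Anln was at 112, 112 and 114 CPM, Aurkb at 56.5, 58.02 and 57.9 CPM and Bub1b at 91.2, 92.6 and 94.8 CPM, each below all control libraries. The call for Bub1b was lost with library totals alone and on the normalised table, and that for Birc5 (adjusted p = 0.0472) in 17 of the alternatives.

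Ccnb2, Kif11 and Mad2l1 rose most in QKI-KD. Ccnb2 stood at 16.01, 16.2 and 14.3 CPM, a log2 change of 0.77 ± 0.064 (adjusted p = 9.3e-09), Kif11 at 108, 107 and 106 CPM, a change of 0.48 ± 0.044, and Mad2l1 at 97.99, 97.6 and 96.9 CPM, a change of 0.43 ± 0.031. All 3 stood above every control library. Sgo1 and Ttk rose by 0.36, and Kif2c, Ube2c, Tpx2 and Spc25 by 0.26 to 0.30. Ncaph, Top2a, Prc1, Cenpa, Incenp, Cenpe, Ccna2, Bub3 and Cdk1 rose by 0.091 to 0.20, with Top2a at 319, 319 and 323 CPM, Cenpe at 154, 160.1 and 157 CPM and Cdk1 at 144, 142 and 143 CPM. The calls for Cenpe and Cdk1 were near the threshold (adjusted p = 0.0398 and 0.0438) and were lost when any of several libraries was left out.

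Several of the best known proliferation genes did not pass in QKI-KD. Mki67 was at 406, 407 and 411 CPM, a log2 change of -0.059 ± 0.052, and Ccnb1 at 135, 134 and 131 CPM, a change of -0.061 ± 0.033. Plk1, at 149, 149.7 and 151 CPM, gave 0.011 ± 0.030, and Cdc20, at 117, 121 and 116 CPM, gave 0.077 ± 0.037, while Foxm1, at 81.2, 84.4 and 84.5 CPM, gave 0.10 ± 0.047. Of these, Cdc20 and Foxm1 had all QKI-KD libraries above control, and Mki67 and Ccnb1 had all of them below. Aurka, Cdc25b, Nek2, Cdca8, Ndc80, Kif20a, Kif4a, Pttg1, Espl1, Smc2 and Ncapd2 were the others that did not pass, and Cdc25b was at 97.5, 95.8 and 105 CPM.

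**Figure D5:**
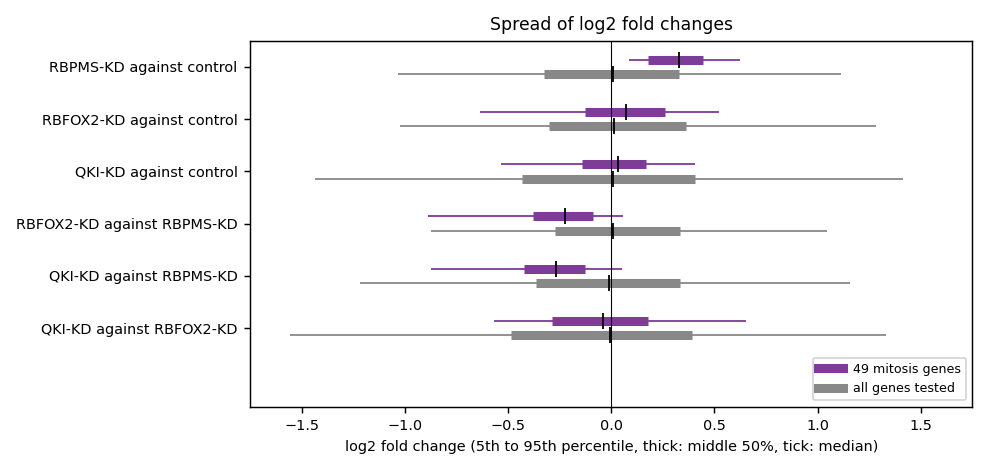
Spread of the log2 fold changes of the 49 mitosis genes (purple) and of all 18438 genes tested (grey) in 6 comparisons, with thin lines from the 5th to the 95th percentile, thick lines for the middle 50% and ticks at the median. The mitosis genes are shifted to the right in RBPMS-KD against control and to the left where RBFOX2-KD and QKI-KD are set against RBPMS-KD.

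Setting the knockdowns against each other tests these differences directly. Compared with RBPMS-KD, RBFOX2-KD had 35 members lower, 1 higher and 13 that did not pass, while 28.8% of all genes tested were lower and 27.9% higher, and the median log2 difference of the members was -0.22. Among the genes averaging 1000 counts or more, 41.6% were lower and 31.5% higher. Scaling by library totals gave 31 members lower and 5 higher, as did the normalised table. QKI-KD against RBPMS-KD gave 40 lower, 2 higher and 7 that did not pass, beside 32% and 29% of all genes, and a median of -0.27. Among the genes averaging 1000 counts or more, 43.6% were lower and 32.5% higher. With library totals alone 28 members were lower and 5 higher. The shares of all genes called under these other scalings were not counted. Between QKI-KD and RBFOX2-KD, 15 members were higher in QKI-KD and 21 lower, beside 33.5% and 35% of all genes, with a median of -0.041. The shares among the genes averaging 1000 counts or more were 40.6% and 41.4%.

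Kif2c was the 1 member higher in RBFOX2-KD than in RBPMS-KD, with a log2 difference of 0.11 ± 0.036 (adjusted p = 0.0127). The call was lost without RBPMS-KD replicate 3 and without RBFOX2-KD replicate 3. Incenp (0.11, adjusted p = 0.0187) and Ncaph (0.083, adjusted p = 0.0447) were higher in QKI-KD than in RBPMS-KD, and neither passed when those groups were fitted alone. The libraries of Incenp overlapped between these groups, and those of Ncaph did not. For Ccnb2 no difference between knockdowns passed, with -0.087 ± 0.063 for RBFOX2-KD against RBPMS-KD, -0.097 ± 0.063 for QKI-KD against RBPMS-KD and -0.010 ± 0.063 between the other two (adjusted p = 0.253, 0.195 and 0.895).

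Of the members called in opposite directions, Bub1b, Kif23, Nuf2, Cdc25b and Anln differed most. Bub1b was 1.32 lower on the log2 scale in RBFOX2-KD than in RBPMS-KD (SE 0.036, adjusted p = 1.53e-14) and 0.99 higher in QKI-KD than in RBFOX2-KD. The low level was that of RBFOX2-KD, and it lay below every other group. Kif23 showed a stepwise order, at 240.2, 238 and 227 CPM in RBPMS-KD, above control, then RBFOX2-KD, then QKI-KD, with differences of -0.84 and -1.21 from RBPMS-KD and of -0.37 between QKI-KD and RBFOX2-KD (adjusted p = 8.92e-09). No 2 of the 4 groups overlapped.

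Nuf2 was at 67.6, 70.8 and 66.1 CPM in RBPMS-KD and had the same order, with QKI-KD lowest and a difference of -0.97 from RBPMS-KD. Cdc25b, at 107, 104 and 106 CPM in RBPMS-KD, was lower in RBFOX2-KD by 0.96 (log2) and did not pass between QKI-KD and RBPMS-KD (-0.084, adjusted p = 0.0801). Anln was lower than in RBPMS-KD by 0.92 in RBFOX2-KD and by 0.83 in QKI-KD, and the difference between those knockdowns did not pass (0.092, adjusted p = 0.0709). Cdc25c, at 33.8, 34.1 and 34.1 CPM in RBPMS-KD and 31.6, 32.4 and 32.1 CPM in RBFOX2-KD, was lower in QKI-KD than in either, by 0.90 and 0.82.

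Genes of 1 complex did not always change alike, in size or in direction. Ndc80 and Nuf2 form a dimer in the outer kinetochore, yet in QKI-KD Ndc80, at 70.9, 72.8 and 73.98 CPM, gave a log2 change of 0.072 ± 0.035 while Nuf2 gave -0.61 ± 0.036. In RBFOX2-KD they were called in opposite directions, but the call for Nuf2 was lost with library totals alone and on the normalised table. Kif23 and Racgap1 are the subunits of centralspindlin, and in QKI-KD both fell, with changes of -0.9999 and -0.18. Bub1b and its partner Bub3 both fell in RBFOX2-KD, with changes of -1.13 and -0.10, the call for Bub3 being lost under the same alternatives as that for Nuf2. The phosphatases Cdc25b and Cdc25c fell in different knockdowns, Cdc25b in RBFOX2-KD and Cdc25c in QKI-KD, and the differences between QKI-KD and RBFOX2-KD were 0.88 and -0.82 (adjusted p = 3.68e-12 and 6.27e-12). These pairs were chosen after their values were seen.

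A wider set of 127 mitosis genes outside the 49 was examined in the same fit, and 124 passed the filter. In RBPMS-KD 87 of them rose and 14 fell, with a median log2 change of 0.26, in RBFOX2-KD 53 rose and 41 fell (median 0.066), and in QKI-KD 62 rose and 37 fell (median 0.11). As shares, 70.2% were higher and 11.3% lower in RBPMS-KD, beside 30.4% and 29% of all genes tested, 42.7% and 33.1% in RBFOX2-KD, beside 30.1% and 30.1%, and 50% and 29.8% in QKI-KD, beside 32.9% and 34%. The shares that fell in RBFOX2-KD and QKI-KD were thus near those of all genes. By role, RBPMS-KD had 13 of 17 regulators of CDK1 and mitotic entry higher and 1 lower, 27 of 36 kinetochore and centromere genes higher and 3 lower, 21 of 26 spindle genes higher and 3 lower, 7 of 10 cytokinesis genes higher and 2 lower, and 9 of 16 cohesin and condensin genes higher with none lower. The subunits and inhibitors of the APC/C were the most divided, with 10 of 19 higher and 5 lower. QKI-KD also had 13 of the 17 regulators of CDK1 and mitotic entry higher, with 2 lower. Of the 19 APC/C genes, 11 were higher there and 4 lower. The QKI-KD medians for these roles, 0.35 and 0.27, lay above the 0.25 and 0.10 of RBPMS-KD. RBFOX2-KD gave 7 higher and 6 lower, and 4 higher and 8 lower. In QKI-KD the kinetochore and centromere genes gave 19 higher and 11 lower, and the spindle genes 10 and 9. Cytokinesis genes gave 3 higher and 5 lower there, and cohesin and condensin genes 6 and 6. Haus8, an augmin subunit, Depdc1 and Cenpo, a kinetochore protein, were the ones past a log2 change of 1 in RBPMS-KD, at 1.28, 1.23 and 1.01.

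In RBFOX2-KD, Depdc1 rose by 1.32, and Zwint, which helps recruit checkpoint proteins to the kinetochore, and Wee1, the kinase that holds CDK1 inactive, gave -1.08 and -1.05. In QKI-KD, Cenpq, Cenpk and Mis12, all proteins of the kinetochore, gave -1.80, -1.26 and -1.49, and the cohesin subunit Stag2 gave -1.03. Haus8, Cenpo and Cdc25a, the phosphatase that also acts at the start of S phase, were at 1.23, 1.03 and 1.04. In these 3 comparisons the genes named here are all those of the wider set past a log2 change of 1 with adjusted p below 0.05, and they were chosen by that rule after their values were seen. In QKI-KD the wider set thus held larger falls than the 49 members did.

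Genes of DNA replication, which act in S phase before mitosis, were examined as a comparison. Of 43 such genes, 39 rose and 2 fell in RBPMS-KD with a median log2 change of 0.38, 20 rose and 7 fell in RBFOX2-KD (median 0.088), and 26 rose and 13 fell in QKI-KD (median 0.18). These are 90.7% higher and 4.65% lower in RBPMS-KD, 46.5% and 16.3% in RBFOX2-KD, and 60.5% and 30.2% in QKI-KD, where the share that fell was near the 34% of all genes tested. All genes gave 30.4% and 29% in RBPMS-KD, 30.1% and 30.1% in RBFOX2-KD, and 32.9% higher in QKI-KD. The S phase list and the mitosis genes thus had their highest medians in the same knockdown.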

How the data were processed

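Poly(A) RNA from rat PAC1 cells was sequenced from a strand-specific kit in 12 libraries, 4 groups of 3, assigned by their titles. The authors deposited raw counts per gene and a normalised signal table. The submitters' processing notes name FastQC 0.11.2, MultiQC 1.8, STAR 2.5.2a, edgeR 3.28.1, DESeq2 1.30.0 and the build mRatBN7.2; the study's methods describe featureCounts on RefSeq genes, noise filtering with noisyR and quantile normalisation. Use of strand and the handling of reads shared by genes are not given in the sources used here. Of count values from 1 to 19, 68.1% were even, so a count need not be 1 fragment. The study's methods give a later second transfection and harvest than the labels.

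The members and gene lists were chosen with earlier results of these data known. Counts were fitted with edgeR 4.0.16 in R 4.3.3 (filterByExpr, TMM, glmQLFit and glmQLFTest, 1 coefficient per group over 12 libraries, two-sided, Benjamini-Hochberg over 18438 genes). The study's second criterion, an absolute log2 change above 1, was counted beside it. Named with every library's value were the 3 largest rises and falls per knockdown, the 3 largest among members rising in every knockdown, the 5 most different among members with opposite calls, and 10 reference members. Alternatives were RLE factors, library totals, no filter, a mean of at least 200 counts, DESeq2 1.42.0, limma 3.58.1 on the log2 of the authors' normalised signal plus 1 or 16, halved counts, the groups of a comparison alone, a replicate block, and each library left out. The scripts were tested on simulated counts. Library totals were 111 to 152 M counts, above the common read depth to which the study's methods say reads were subsampled. The chi-square per degree of freedom between libraries of a group was 4.64 to 57.8, so the spread between libraries, more than depth, sets the precision. Same-numbered libraries did not deviate together (18 correlations from -0.055 to 0.039). Splicing and the authors' genome sequence were not analysed here.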

Additional observations from a re-analysis of the deposited data

How the results depend on the processing

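The rise in RBPMS-KD held in all alternatives run, with 41 to 47 members higher than in control. Members lower than in RBPMS-KD numbered 31 to 39 in RBFOX2-KD and 28 to 40 in QKI-KD, more than were higher. Shares of all genes called were counted in the main fit only, so these ranges concern the members' counts alone. The count of members lower in RBPMS-KD than in control went from 0 to 1 (Nusap1) with library totals, with a mean of at least 200 counts, with DESeq2 and on the normalised table with a pseudocount of 1 or 16. Members higher in RBFOX2-KD than in RBPMS-KD went from 1 to 5 with library totals, 2 with no filter, 4 with a mean of at least 200 counts, and 5 on the normalised table with either pseudocount, and from 0 to 3 with 1 library left out. Members higher in QKI-KD than in RBPMS-KD went from 2 to 5 with library totals, 1 with no filter, 4 on the normalised table with either pseudocount, 0 in the groups alone, and 0 to 2 with 1 library left out.

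The members' median log2 changes shifted with scaling and filter, and none changed sign. In RBPMS-KD (0.33) the median was 0.28 with library totals, 0.31 with no filter and 0.29 on the normalised table with either pseudocount, and 0.30 to 0.33 with 1 library left out. In RBFOX2-KD (0.072) it was 0.13 with library totals, 0.094 with a mean of at least 200 counts and 0.11 on the normalised table with either pseudocount. In QKI-KD (0.033) it was 0.12 with library totals, 0.019 with no filter, 0.067 with a mean of at least 200 counts and 0.074 on the normalised table with either pseudocount, and 0.018 to 0.037 with 1 library left out. RBFOX2-KD against RBPMS-KD (-0.22) gave -0.12 with library totals, -0.19 with a mean of at least 200 counts, -0.15 on the normalised table with either pseudocount, and -0.24 to -0.19 with 1 library left out. QKI-KD against RBPMS-KD (-0.27) gave -0.25 with RLE factors and with DESeq2, -0.14 with library totals, -0.22 with a mean of at least 200 counts, -0.19 on the normalised table with either pseudocount, and -0.30 to -0.24 with 1 library left out. QKI-KD against RBFOX2-KD (-0.041) gave -0.0093 with library totals, -0.014 on the normalised table with either pseudocount, and -0.043 to -0.012 with 1 library left out. With library totals, the median of all genes tested went from 0.0085 to -0.036 in RBPMS-KD. It went from 0.015 to 0.069 in RBFOX2-KD and from 0.0070 to 0.093 in QKI-KD, and the members' medians moved in the same directions. Library totals leave out the TMM factors, so that setting moves all genes of a comparison by nearly the same amount. The factors were 0.978 to 0.991 in control, 0.948 to 0.958 in RBPMS-KD, 1.02 in RBFOX2-KD and 1.04 to 1.05 in QKI-KD. What caused the shifts in the other settings was not tested.

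Some members that did not pass in a comparison changed sign. In RBPMS-KD, Incenp gave -0.030 with library totals, -0.0029 with no filter, -0.039 on the normalised table with either pseudocount and -0.015 to 0.046 with 1 library left out. In RBFOX2-KD, Espl1 gave 0.027 with library totals and 0.028 on the normalised table with either pseudocount, where Top2a gave 0.0059. In QKI-KD, library totals gave 0.025 for Ccnb1, 0.083 for Aurka, 0.056 for Kif4a, 0.053 for Pttg1, 0.027 for Mki67 and 0.0066 for Smc2. There the normalised table gave 0.037 for Aurka, 0.026 for Kif4a, 0.071 and 0.070 for Pttg1 with a pseudocount of 1 and 16, and 0.040 for Mki67. A mean of at least 200 counts gave 0.032 for Aurka, 0.0049 for Kif4a and 0.0014 for Pttg1. Aurka gave 0.0035 with RLE factors, 0.0034 with DESeq2 and 0.0030 with halved counts. With no filter, Plk1 gave -0.0024 and Espl1 -0.0097. Leaving out 1 library gave -0.027 to 0.017 for Aurka, -0.00065 to 0.016 for Plk1 and -0.0065 to 0.013 for Espl1.

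Replicate numbers did not pair the libraries, since 5 of 18 same-numbered pairs correlated best with their own number and none above 0.1. A fit with the replicate block gave 46 members higher in RBPMS-KD, 23 higher and 15 lower in RBFOX2-KD, 17 higher and 14 lower in QKI-KD, and 1 higher in QKI-KD than in RBPMS-KD. With 3 libraries against 3, exact permutation of 1 gene cannot go below p = 0.10, and the calls rest on the spread shared over genes and groups.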
